A study of Homo sapiens with 35 samples.

Results

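The 4 HOX clusters and the 1 Mb on either side of each were followed in maps of lamina contact from 32 single cells. Earlier results of these data were known when the loci and the comparisons were chosen. The bins were set by position: the 100-kb bins of the deposited table that overlap HOXA (chromosome 7, 27.13 to 27.25 Mb), HOXB (chromosome 17, 46.60 to 46.81 Mb), HOXC (chromosome 12, 54.33 to 54.45 Mb) and HOXD (chromosome 2, 176.94 to 177.06 Mb), in hg19, with the bins of the neighbouring 1 Mb kept apart as a lower and an upper flank by coordinate. This gave 89 of the 26584 bins that have values: 9 cluster bins (2 for HOXA, 3 for HOXB, 2 for HOXC and 2 for HOXD) and 80 flank bins, 10 in each of the 8 flanks. All 89 had a value in every cell, and none was removed by a filter.

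All cells belong to 1 group, clone 5-5 of KBM7, a human myeloid leukaemia cell line, labelled diploid (2N) and carrying the Dam methylase fused to LaminB1. Dam marks the adenine of GATC in DNA that comes close to the fusion protein, here a filament protein of the nuclear lamina. Methylation was induced with 0.5 nM Shield1, which stabilises the fusion, for 15 h, and single cells were sorted from the 2% smallest that carried both Fucci cell-cycle markers. The line is a single clone, and neither a second condition nor cells with unfused Dam were analysed here, and every comparison sets one region of a cell against another region of that cell. The labels do not say whether the cells came from separate cultures, so the p-values of the comparisons between regions measure only the spread between these cells. The tests of single bins, which set a bin against the contact shares of the same cells, do not measure that spread. They too cover these cells only.

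HOX genes encode homeodomain transcription factors that give cells their position along the body axis. Vertebrates keep them in 4 clusters, in which the order of the genes along the chromosome follows the order of their use from head to tail. In cells that do not use them the clusters are classically covered by Polycomb, while many other silent genes lie in lamina-associated domains, large stretches of chromatin at the nuclear periphery. The HOXD cluster is known for regulatory deserts on both of its sides that drive its genes in limbs.

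The 7 genes that mark the cluster ends are HOXA13, HOXB1, HOXB13, HOXC4, HOXC13, HOXD1 and HOXD13. HOXA13 and HOXD13 pattern digits, HOXB1 patterns the hindbrain, HOXB13 acts in the prostate and tail end, and HOXC13 in hair and nails. RefSeq lists 39 HOX genes in the clusters, 11 in HOXA, 10 in HOXB, 9 in HOXC and 9 in HOXD. By its gene order, HOXA13 and HOXB13 lie at the upper end of their clusters by coordinate, whereas HOXC13 and HOXD13 lie at the lower end. HOXB holds HOXB1 to HOXB9 and HOXB13. HOXC holds HOXC4, HOXC5, HOXC6 and HOXC8 to HOXC13, and HOXD holds HOXD1, HOXD3, HOXD4 and HOXD8 to HOXD13. The gene tables are of another build (GRCh38.p14) than the bins, so genes are placed by their order and not in bins.

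Because Dam acts on GATC alone, the upstream sequence of the cluster-end genes is shown with each GATC in capitals. RefSeq promoter windows (GRCh38.p14, the 250 bases before the start of the gene, read 5′ to 3′ along it) were matched for 5 of the 7 genes.
HOXD13 (chr2:176092471-176092720, plus strand): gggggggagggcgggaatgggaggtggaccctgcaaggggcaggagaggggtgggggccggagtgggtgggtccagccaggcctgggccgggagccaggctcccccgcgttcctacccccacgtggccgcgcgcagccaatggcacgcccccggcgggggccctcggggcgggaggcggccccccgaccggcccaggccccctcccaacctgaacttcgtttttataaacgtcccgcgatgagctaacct
HOXD1 (chr2:176188418-176188667, plus strand): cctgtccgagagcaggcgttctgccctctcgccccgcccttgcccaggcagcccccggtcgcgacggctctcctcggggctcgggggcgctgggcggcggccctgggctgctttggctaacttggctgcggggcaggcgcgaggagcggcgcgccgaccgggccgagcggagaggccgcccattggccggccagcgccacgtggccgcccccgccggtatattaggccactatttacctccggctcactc
HOXA13 (chr7:27200092-27200341, minus strand): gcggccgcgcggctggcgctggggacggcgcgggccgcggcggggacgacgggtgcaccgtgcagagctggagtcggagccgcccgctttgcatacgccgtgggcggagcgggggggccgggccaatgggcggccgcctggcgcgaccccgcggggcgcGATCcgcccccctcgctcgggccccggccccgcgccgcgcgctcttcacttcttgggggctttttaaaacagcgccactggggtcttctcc
HOXB1 (chr17:48531012-48531261, minus strand): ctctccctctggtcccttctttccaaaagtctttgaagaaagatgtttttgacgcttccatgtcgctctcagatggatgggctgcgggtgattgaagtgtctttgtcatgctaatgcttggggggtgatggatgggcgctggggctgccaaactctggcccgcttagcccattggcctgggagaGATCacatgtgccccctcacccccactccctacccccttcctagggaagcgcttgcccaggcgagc
HOXC4 (chr12:54016638-54016887, plus strand): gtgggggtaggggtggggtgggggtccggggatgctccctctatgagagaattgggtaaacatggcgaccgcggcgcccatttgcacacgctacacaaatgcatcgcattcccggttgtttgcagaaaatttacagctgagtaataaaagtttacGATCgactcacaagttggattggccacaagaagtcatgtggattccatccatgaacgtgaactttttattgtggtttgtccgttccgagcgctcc
HOXD13 and HOXD1 had no GATC in this window, and HOXA13, HOXB1 and HOXC4 had 1 each. Inside the clusters, HOXD11 and HOXD8 had 2 each, and HOXA6 and HOXA7 had 0. GATC reads the same on both strands and was found in 35.8% of the 35116 RefSeq windows of this length. Windows were matched for 20 of the 39 HOX genes, and 11 of these genes had a GATC in at least 1 window. Some genes have several windows (HOXA3 has 7), so a count of genes is not comparable with a share of windows. A bin spans 100 kb, so these letters describe the promoters and not the measurement over the bin.

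The clusters also carry microRNA genes of shared families, which mark them as copies of one ancestral cluster. Mature sequences from RefSeq are given with the seed, bases 2 to 8, in capitals.
hsa-miR-196b-5p: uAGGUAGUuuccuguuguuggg
hsa-miR-196a-5p: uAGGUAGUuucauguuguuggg
hsa-miR-10a-5p: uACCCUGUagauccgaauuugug
hsa-miR-10b-3p: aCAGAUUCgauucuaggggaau
miR-196b lies in HOXA, and miR-196a has a copy in HOXB and another in HOXC, with the seed AGGUAGU in all of them. miR-10a lies in HOXB and miR-10b, of the same family, in HOXD, with the 3p arm shown for miR-10b.

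Each value in the table is a bin's observed reads in a cell divided by the expected reads (OE), and a bin with an OE of 1 or more was called in contact. A call can come from either chromosome copy and from any time in the 15 h. Reads recovered from the steps of the values ranged from 40279 to 258222 per cell in 29 cells. The other 3 (cells 13, 15 and 17) had only 985 to 1755 reads, so that any read in a bin made a contact, and results that rest on them are given with and without them. Over all bins, cells had 26.3% ± 8.08 of their bins in contact (SD, n = 32).

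HOXA, HOXB and HOXC lay outside lamina contacts together with their surroundings, and HOXD lay inside a stretch that was in contact in some of the cells. Of the 67 bins of the first 3 loci, 63 were in contact in no cell, as were 42% of all bins of the table, and only 6 of 2144 values reached an OE of 1. Of the 22 bins of the HOXD locus, 4 were in contact in no cell, and 144 of 704 values reached an OE of 1. Within the HOXD locus, the cluster was in contact less often than its flanks.

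**Figure D1:**
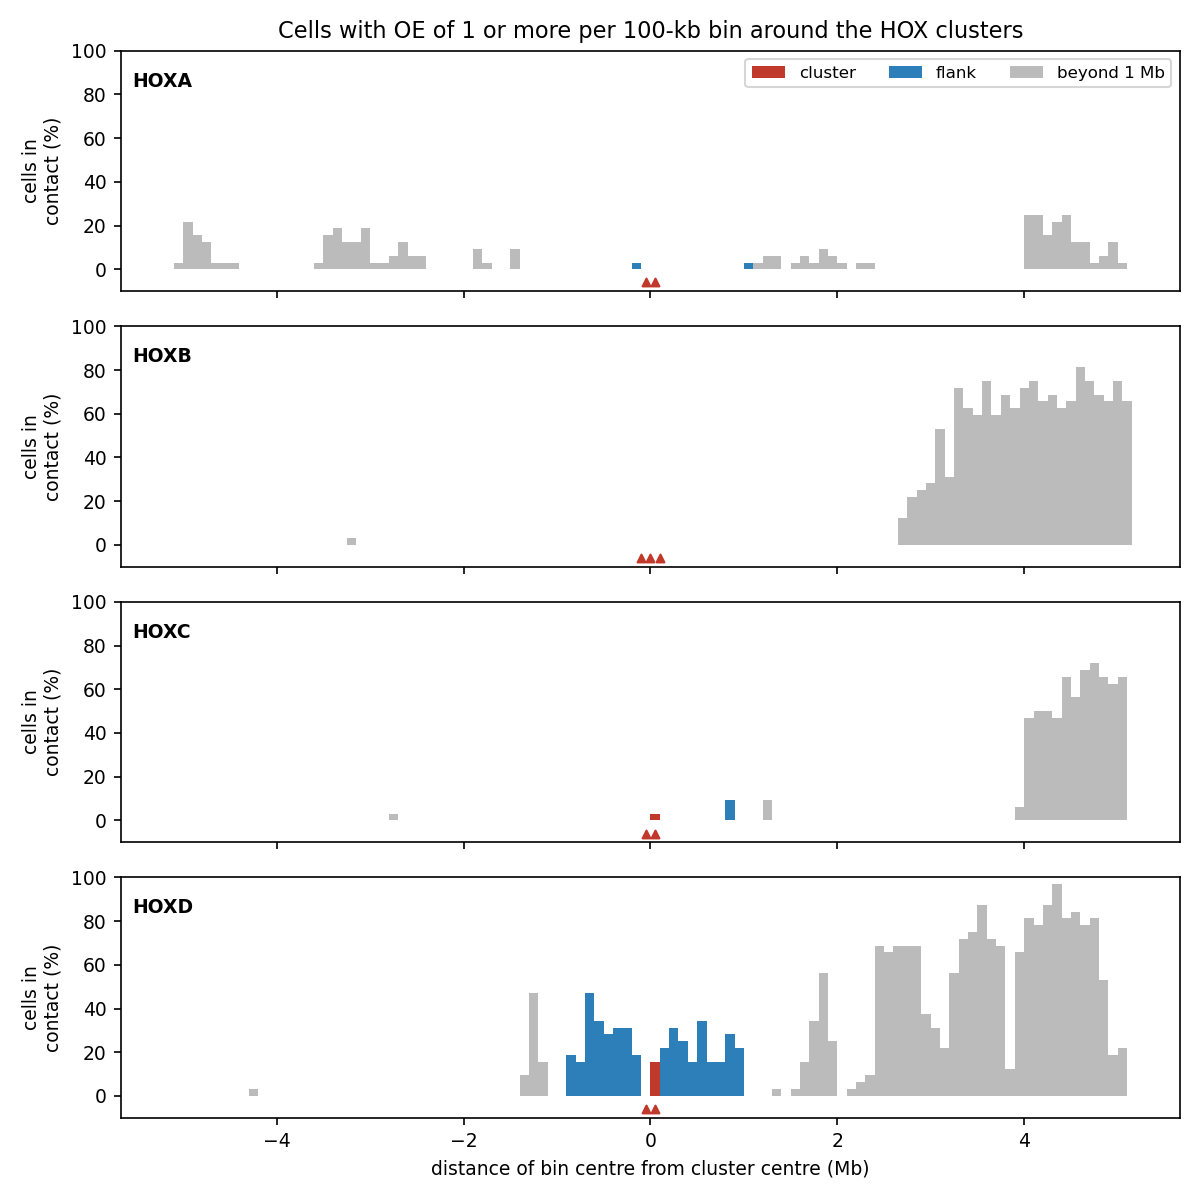
Percentage of the 32 cells with an OE of 1 or more (y axis) in each 100-kb bin, by distance of its centre from the cluster centre in Mb (x axis), for the 4 loci. Red bars and triangles mark cluster bins, blue bars the flanks of 1 Mb and grey bars the bins beyond them. Bins within 2 Mb of HOXB and HOXC are in contact in at most 3 cells, with stretches in contact in more cells farther above. The first HOXD cluster bin is a gap between contacted bins.

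Each bin was tested for being in contact in more or fewer cells than expected from the contact shares of the cells (8.42 cells), with an exact Poisson-binomial test and Benjamini-Hochberg adjustment over all 26584 bins. Among all bins 54.5% of the bins were called in fewer cells, each in at most 3, and 30.3% in more, each in at least 15. Of the 9 HOX cluster bins, 8 were called in fewer cells and 0 in more, and the second HOXD bin in neither. Of the 80 flank bins, 63 were called in fewer cells and 1 in more. All 67 bins of HOXA, HOXB and HOXC were called in fewer cells, whereas at HOXD 4 of 22 bins were called in fewer cells, 1 in more and 17 in neither. Adjusted p was 0.000146 for a bin in contact in no cell.

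The HOXA cluster had no contact in any cell, which for 32 cells allows a frequency of up to 9.38% when 3 counts are taken as the limit (the exact 95% interval ends at 10.9%). Its first bin (chr7:27100001-27200000), at the end away from HOXA13, had reads in 3 cells and a highest OE of 0.194, and its second bin (chr7:27200001-27300000), at the HOXA13 end, had reads in 2 cells and a highest OE of 0.347. In the 29 deeper cells 1 read in these bins was worth a median OE of 0.143 to 0.162, so that a contact would have needed several reads. The nearest genes on the lower side are SKAP2, an adaptor of immune cells, then SNX10, CBX3 (the heterochromatin protein HP1γ), HNRNPA2B1 and NFE2L3. On the upper side they are EVX1, a homeobox gene that neighbours the cluster, then HIBADH, TAX1BP1, JAZF1 and CREB5. In each flank, 9 of 10 bins had no contact, and the upper bin next to the cluster (chr7:27300001-27400000) had reads in 2 cells. The exceptions just passed the limit: the bin next to the cluster on the lower side (chr7:27000001-27100000) had an OE of 1.01 in cell 31, and the last bin of the upper flank (chr7:28200001-28300000) an OE of 1.02 in cell 26. Farther out, single stretches came near the 8.42 cells expected of a bin, with at most 7 cells in any bin within 5 Mb below and 8 cells within 5 Mb above.

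At HOXB neither the cluster nor a flank was in contact in any cell. The first cluster bin (chr17:46600001-46700000), at the HOXB1 end, had no read in any cell. The middle bin (chr17:46700001-46800000) had reads in 3 cells with a highest OE of 0.200, and the last (chr17:46800001-46900000), at the HOXB13 end, in 1 cell with an OE of 0.0884. Below the cluster lie SKAP1, the T-cell relative of SKAP2, then SNX11, CBX1 (HP1β), NFE2L1 and COPZ2, and above it TTLL6, CALCOCO2, ATP5MC1, UBE2Z and SNF8. The flank bins had reads in 0 to 5 cells, with a highest mean OE of 0.0429 for a bin. Next to the cluster, the lower bin (chr17:46500001-46600000) had a highest OE of 0.307 and the upper bin (chr17:46900001-47000000) of 0.536. The upper bin had reads in 1 cell only, which gave that value. Within 5 Mb below the cluster no bin was in contact in more than 1 cell. Above it, 4, 7, 8 and 9 cells were in contact in successive bins before the first bin with at least 16 cells (chr17:49800001-49900000, 17 cells, 2.9 Mb above), and 20 bins of that side reached that number.

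At HOXC the cluster had a single contact, in a shallow cell. The first bin (chr12:54300001-54400000), at the HOXC13 end, had reads in 2 cells and a highest OE of 0.197. The second (chr12:54400001-54500000), at the HOXC4 end, reached an OE of 18.2 in cell 15, which rests on 1 read of the 1220 in that cell. Its highest OE in the 29 deeper cells was 0.0946. The lower flank, toward CALCOCO1, ATP5MC2, ATF7 and NPFF, had no contact in any cell, and its bin next to the cluster (chr12:54200001-54300000) had reads in 4 cells. The upper flank begins with SMUG1, a DNA repair enzyme, CBX5 (HP1α), HNRNPA1, the myeloid and erythroid factor gene NFE2, and COPZ1. Its bin next to the cluster (chr12:54500001-54600000) had a read in 1 cell. The upper flank had 1 contacted bin (chr12:55200001-55300000), with OE values of 1.83, 1.92 and 1.79 in cells 1, 8 and 31. With any read counted, 4.38% of the lower and 15.9% of the upper flank bins had a read per cell (permutation test, adjusted p = 0.00164), a difference that at the OE limit of 1 was 0% against 0.938% and did not pass (adjusted p = 1, lower in 3 cells and equal in 29). The nearest bin in contact in at least 16 cells lay 4.0 Mb above the cluster (chr12:58500001-58600000).

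The HOXD cluster was in contact in 5 of 32 cells (15.6%, exact 95% interval 5.28 to 32.8%), all through its second bin. The first bin (chr2:176900001-177000000), at the HOXD13 end, was in contact in no cell. Its OE was lowest at 0, with a median of 0.164 and a highest value of 0.604 in cell 29. It was not empty, since 18 cells had reads there, 44 reads in all. Among the 11165 bins of the table that were in contact in no cell, 12 (0.107%) had reads in at least that many cells. That limit was taken from this bin, which is itself among the 12, so the share is a description and not a test. The second bin (chr2:177000001-177100000), at the HOXD1 end, had reads in 15 cells, with a lowest and a median OE of 0 and a highest of 2.22. Its contacts were in cells 11, 19, 20, 28 and 34, with OE values of 1.66, 2.22, 1.92, 1.65 and 1.40, each from 5 to 18 reads. In these cells the first bin had an OE of 0.240 to 0.476, so that both cluster bins carried reads and only the second passed the limit. Each of these bins also holds sequence outside the cluster, on the side of the flank. The reads of a bin can therefore not be placed at a HOX gene.

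**Figure D2:**
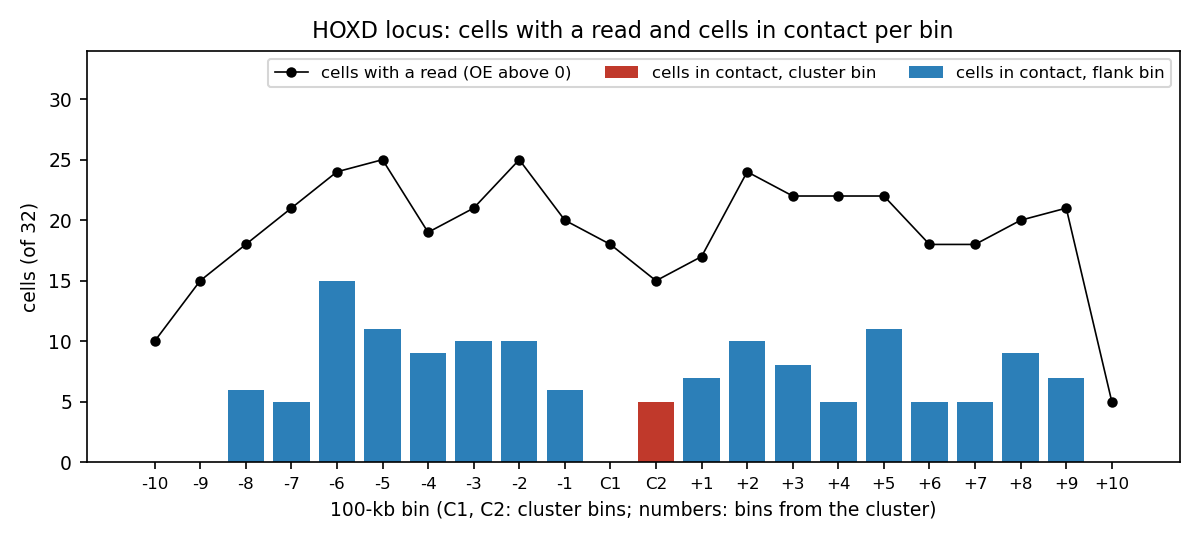
Number of the 32 cells in contact (bars, red for the cluster bins C1 and C2, blue for flank bins) and number with any read (black points) in the 22 bins of the HOXD locus, in order along the chromosome (x axis, bins from the cluster). C1, at the HOXD13 end, has reads in 18 cells and contacts in 0, between bins with 6 and 5 cells in contact.

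The flanks of HOXD were in contact in an intermediate number of cells. The lower flank, toward EVX2, a homeobox gene beside HOXD13, then LNPK (lunapark, a protein of the endoplasmic reticulum), ATP5MC3, ATF2 and CHN1, had 0 to 15 cells in contact per bin with a median of 7.5. Its highest bin (chr2:176300001-176400000) was in contact in 15 cells (adjusted p = 0.0212), with OE values of 0 at the lowest, 0.948 at the median and 6.28 at the highest. It was the only bin of the 4 loci called in more cells than expected. The upper flank, toward MTX2, a mitochondrial import protein, then HNRNPA3, NFE2L2 (the stress-response factor NRF2), AGPS and IFT70B, had 0 to 11 cells per bin with a median of 7. Its highest bin (chr2:177500001-177600000) was in contact in 11 cells, of which cell 13 is shallow. Next to the cluster, 6 cells were in contact in the last lower bin (chr2:176800001-176900000) and 7 in the first upper bin (chr2:177100001-177200000). The outermost bins of the locus were in contact in no cell, the first 2 on the lower side and the last on the upper side.

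Taken over its 2 bins, the HOXD cluster differed from its flanks. The first bin was in contact in 0 cells and the second in 5. Some flank bins were as low, such as chr2:175900001-176000000 with 0 cells and chr2:176200001-176300000 with 5. A cell had 7.81% ± 18.4 of the cluster bins in contact, against 21.7% ± 21.7 of the flank bins (SD, n = 32), a difference of -13.9 percentage points ± 18.4. The cluster was lower in 22 cells, higher in 1 and equal in 9 (sign-flip permutation test over cells, two-sided, adjusted p = 0.00024 over 4 loci). These cell counts set 2 cluster bins against 20 flank bins. A cell with no cluster contact counts as lower with a contact in any flank bin. The mean OE, which needs no limit, was 0.272 ± 0.367 in the cluster and 0.618 ± 0.490 in the flanks, with the cluster lower in 27 of 32 cells (adjusted p = 0.0002). Without the 3 shallow cells the shares were 8.62% and 23.8% (adjusted p = 0.00024). With an OE limit of 2 they were 1.56% and 6.09% (adjusted p = 0.324), and with any read counted 51.6% and 60.5% (adjusted p = 0.352), so the call in shares was not kept at those limits.

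**Figure D3:**
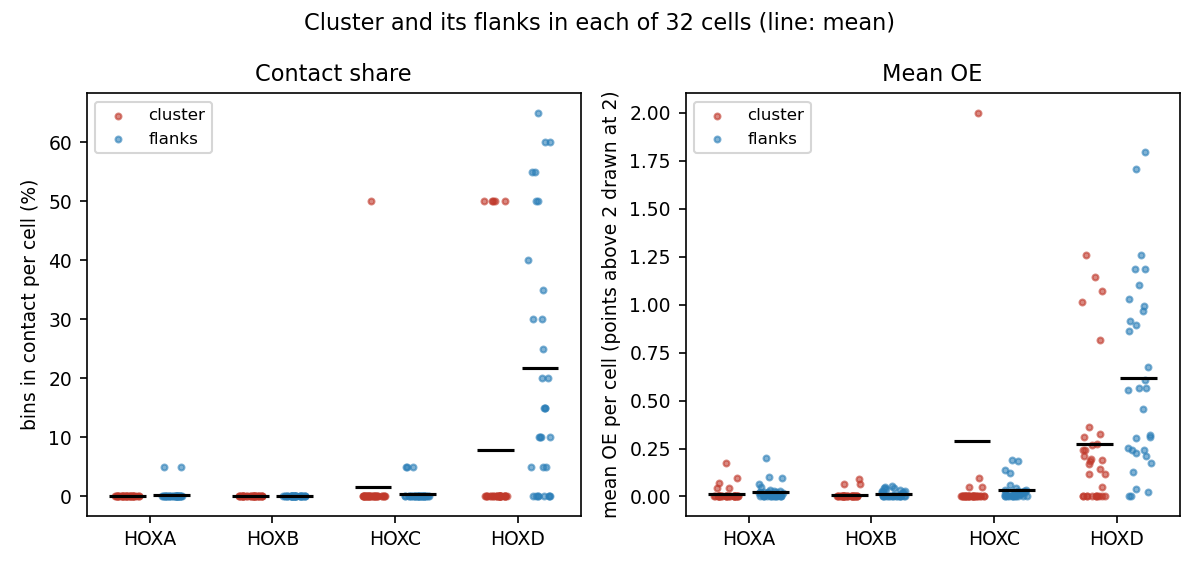
Percentage of bins in contact (left) and mean OE (right) of the cluster (red) and its 2 flanks (blue) in each of the 32 cells, with the mean as a line. At HOXD the cluster lies below its flanks in 22 cells by share and in 27 by mean OE, and at HOXC 1 shallow cell sets the cluster's mean.

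At the other loci the cluster was not separated from its flanks of 1 Mb with all cells counted, but at HOXC this changed without the shallow cells. Contact shares were 0% and 0.313% for HOXA, and 0% in both for HOXB. At HOXC they were 1.56% and 0.469% with cell 15, and 0% and 0.517% without the 3 shallow cells. Mean OE was 0.0133 ± 0.0370 in the HOXA cluster against 0.0240 ± 0.0420 in its flanks (adjusted p = 0.4), and 0.00684 ± 0.0219 against 0.0141 ± 0.0177 for HOXB (adjusted p = 0.208). The HOXC cluster had a mean OE of 0.291 ± 1.61 against 0.0317 ± 0.0522 with all cells (adjusted p = 0.999). Without the 3 shallow cells it was 0.00675 ± 0.0216 against 0.0350 ± 0.0538, lower in the cluster (permutation test, adjusted p = 0.00272). The direction was therefore set by the 1 read of cell 15. Also without the shallow cells, mean OE was 0.00855 ± 0.0145 in the lower HOXC flank, close to the cluster, and 0.0615 ± 0.102 in the upper. The lower value of the cluster thus came mainly from the upper flank. The HOXC cluster had only 5 reads over all cells, and it was not tested against each flank alone.

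All 4 clusters were in contact less often than the 26495 bins outside the loci, which had a share of 26.4% ± 8.10. The differences were -26.4 percentage points for HOXA and HOXB, lower in 32 of 32 cells, -24.8 points for HOXC, lower in 31, and -18.6 points for HOXD, lower in 27 (permutation tests over 4 clusters, adjusted p = 1.33e-05 for the first 3, from the smallest p that 100000 resamples can give, and 5e-05 for HOXD). A region in contact in no cell is lower in every cell by the whole share of the other bins. The HOXA and HOXB values therefore only restate the absence of contact, which 42% of all bins showed. At HOXC and HOXD the cells counted as lower are likewise those without a contact in the cluster. The only HOXC contact is the 1 read of shallow cell 15. Chromosomes differ in their share, and against the other bins of their own chromosome the differences were -20.98 points for HOXA, -6.40 for HOXB, -21.4 for HOXC and -22.2 for HOXD (permutation tests, adjusted p = 1e-05). Chromosome 17, which holds HOXB, had a share of only 6.40% outside the locus. With any read counted the HOXD cluster stood at 51.6% against 44.6% for the other bins (adjusted p = 0.298), the opposite direction. The 6 flanks of HOXA, HOXB and HOXC differed from the other bins by -25.5 to -26.4 points and were lower in 32 of 32 cells each (permutation tests, adjusted p = 1.33e-05 over 8 flanks). Against bins of the same chromosome both HOXB flanks differed by -6.40 points, and the HOXA and HOXC flanks by -20.7 to -22.99 points (permutation tests, adjusted p = 1.33e-05). For both HOXB flanks and the lower HOXC flank, in contact in no cell, these values too only restate the absence of contact. The HOXA flanks, with 1 contact in each, come close to this.

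In mean contact share the HOXD flanks were not separated from the other bins at the OE limit of 1. A similar mean does not make them typical bins. Of their 20 bins, 16 were called in neither direction. Among all bins 54.5% were called in fewer cells and 30.3% in more. The lower flank had a share of 22.5% ± 25.1 (-3.89 points against the other bins, adjusted p = 0.366) and the upper flank 20.9% ± 23.2 (-5.46 points, adjusted p = 0.190), each above the other bins in 11 cells and below in 21. The direction depended on the limit, with shares of 61.9% and 59.1% against 44.6% when any read counted (adjusted p = 0.000469 and 0.00211), and of 7.19% and 5.00% against 17.2% at an OE of 2 (adjusted p = 0.00175 and 1.14e-05). Against the other bins of chromosome 2, whose share was 30.0%, the upper flank was lower (adjusted p = 0.0237). The lower flank exceeded the upper by 1.56 points ± 21.4, higher in 12 cells, lower in 8 and equal in 12 (adjusted p = 1).

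The surroundings of HOXD differed from those of every other cluster. HOXD flanks had 21.7% of their bins in contact, against 0.313% at HOXA, 0% at HOXB and 0.469% at HOXC. HOXD was higher in 24 of 32 cells in each of these 3 pairs (permutation tests, adjusted p = 2e-05 over 6 pairs, from the smallest p the resamples can give). These are the 24 cells with any contact in the HOXD flanks. Against flanks with almost no contact the difference can hardly be negative, so these tests largely restate that near absence. The flanks of HOXA, HOXB and HOXC were not separated from each other at 1 Mb (adjusted p = 0.377 to 1). Few cells had any contact there (2, 0 and 3), which leaves such a test little to work with. With flanks of 2 Mb, HOXA had 1.88%, HOXB 0% and HOXC 0.469%, and HOXA then exceeded both (adjusted p = 0.00159 and 0.0346).

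Cells differed widely at HOXD. The share of flank bins in contact was lowest at 0%, with a median of 15% and a highest value of 65%, or 0 to 13 of the 20 bins. Both flanks had a contact in 16 cells, the lower flank alone in 4, the upper alone in 4 and neither in 8, of which 6 were deeper cells. The 5 cells with a contact in the cluster all had contacts in both flanks, in 5 to 13 bins with a median of 11. The other 24 deeper cells had 0 to 12 flank bins in contact with a median of 2.5. In 4 of the 5 cells the next upper bin was in contact too, and in 3 of the 5 the next lower bin. In the 16 cells with contacts on both sides, a choice that uses the flank values, the OE of the first cluster bin was 0 to 0.604 with a median of 0.318, and that of the second 0 to 2.22 with a median of 0.315.

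**Figure D4:**
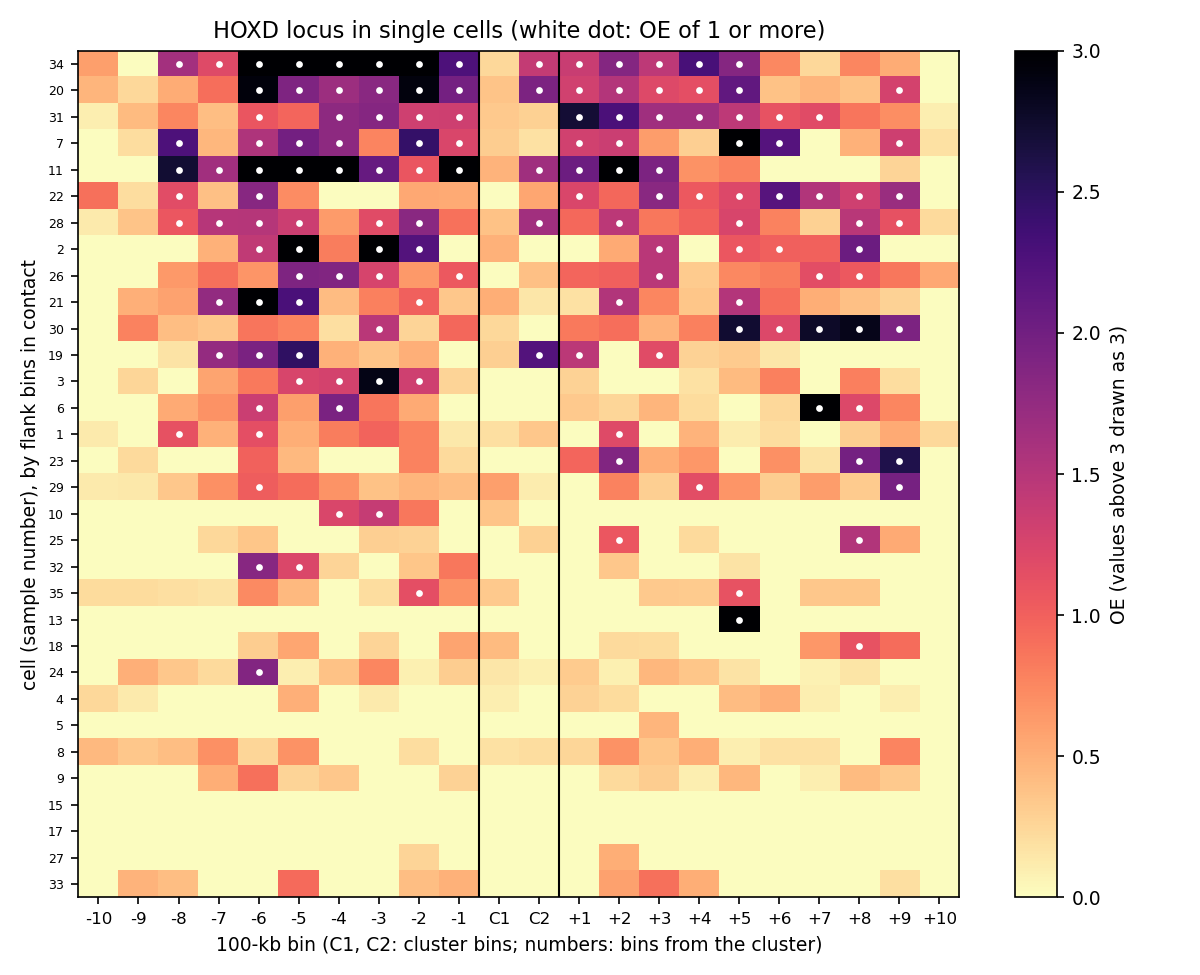
OE in the 22 bins of the HOXD locus (x axis, in order along the chromosome) in each of the 32 cells (rows, by the number of flank bins in contact), with white dots where OE is 1 or more and values above 3 drawn as 3. White dots lie on both sides of the cluster in 16 cells, and the cluster bin C1 has none in any cell.

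Over the 29 deeper cells, which share the line and the preparation, the number of flank bins in contact had a Pearson's r of 0.0831 and a Spearman's rho of 0.0823 with reads (log10 for r), and of 0.209 and 0.223 with the contact share of the cell. The lower and the upper flank were more closely related, with r = 0.581 and rho = 0.625 over the same cells. These values are descriptions, and neighbouring bins of one chromosome share copy number and reads. The cells with a contact in the cluster had 82207 to 213718 reads and were not the deepest.

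Beyond 1 Mb the 2 sides of HOXD differed in what they led to. On the lower side, 36 of the 40 bins between 1 and 5 Mb were in contact in no cell, and the highest had 15 cells. On the upper side only 4 of 40 were in contact in no cell. The nearest bin in contact in at least 16 cells lay 1.7 Mb above the cluster (chr2:178800001-178900000, 18 cells), and the highest, 4.2 Mb above, was in contact in 31. No bin within 5 Mb below HOXD, and none within 5 Mb on either side of HOXA, reached 16 cells.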

How the data were processed

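DamID of LaminB1 was measured in single KBM7 cells, 1 per sample. The deposited table gives the ratio of observed to expected reads per 100-kb bin and cell, per the file headers. Per the submitters' processing notes, the authors used cutadapt, Bowtie2 2.1.0 and hg19. Not given in the sources used here are the making of the expectation and the handling of duplicates. Of the 35 samples in the labels, 32 matched a column by number, and samples 12, 14 and 16 were not analysed here. Of 30376 bins, 26584 had values in every cell.

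Whole reads were recovered as multiples of the largest step that divides all values of a bin (tolerance 0.01), after scaling cells to each other. In bins with few reads the step can be too large and the reads too low. No 2 cells had identical values. PCR reads are not independent molecules, so intervals and limits cover counting error only. Regions were compared within cells by two-sided sign-flip permutation tests (100000 resamples), adjusted by Benjamini-Hochberg within each family. Bins were compared by an exact Poisson-binomial test (the smaller tail times 2). Both were used at 0.05 and checked on simulated data. The simulated differences were normal and nearly all simulated bins unchanged, unlike the many zeros and ties here, so the check does not cover this setting. Python 3.11.15, numpy 2.4.6, scipy 1.17.1, pandas 2.3.3 and matplotlib 3.10.9 were used. Named were all cluster bins, in each flank the bin next to the cluster and the highest, the nearest bin in contact in at least 16 cells within 5 Mb, and the 5 nearest protein-coding genes per side. Other bins were named with their values known. The members and the comparisons were chosen with earlier results of these data known. Alternatives were contact limits of 0.5, 2 and any read, cells of at least 10000 reads, flanks of 0.5 and 2 Mb and bins of the same chromosome. Part of the HOXA gene list is not reported here.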

Additional observations from a re-analysis of the deposited data

How the results depend on the processing

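Of 188 recomputed values, 162 stayed on the same side of the threshold without turning to the opposite sign (counts within 1.5 times, and differences of 0 in either setting included), and 26 did not. The cause was not tested for these, except that cell 15 holds the only contact of the HOXC cluster. Flank bins called in more cells than expected numbered 4 with an OE limit of 0.5, 0 with 2 and 10 with any read, in place of 1, against 34.6%, 25.3% and 37.7% of all bins at those limits. For the HOXD cluster against its flanks the difference was -4.53 points with an OE limit of 2 and -8.91 with any read, and neither passed. For the HOXD lower and upper flank against the other bins, the differences were 5.58 and 2.77 points with an OE limit of 0.5, 17.2 and 14.4 with any read, -10.03 and -12.2 with a limit of 2, and -11.6 and -9.12 with flanks of 2 Mb. With flanks of 0.5 Mb the lower flank stood at 2.39 points, and against bins of chromosome 2 the upper flank at -9.10. The HOXD cluster against the other bins turned to 6.92 points with any read. The HOXD lower flank minus the upper flank turned to -2.50 points with flanks of 2 Mb, and the same difference at HOXC passed at -11.6 points with any read. The HOXC cluster minus its flanks was -3.91 points with any read and, without the 3 shallow cells, -0.517 points and -0.0283 in mean OE. The HOXA cluster passed against flanks of 2 Mb, at -1.88 points and -0.0686 in mean OE. Its contact share was 0% in every cell, so its difference in share could not have been positive. The flanks of HOXA minus those of HOXC were 0.313 points with flanks of 0.5 Mb and 1.41 with 2 Mb, and HOXA minus HOXB was 1.88 points with 2 Mb.

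Leaving out each cell in turn was chosen after the data were seen. The HOXD cluster minus its flanks was then -15.2 to -12.4 points and -0.380 to -0.322 in mean OE, with adjusted p of at most 0.00044. For HOXC it was -0.484 to 1.29 points and -0.0265 to 0.272 in mean OE, with the lowest values without cell 15. The 9 cluster bins are few, and cluster ends share bins with neighbouring sequence.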
